A study of Mus musculus with 16 samples.

Results

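The 7 genes described here are the core genes of MHC class II antigen presentation in the mouse, namely H2-Aa, H2-Ab1, H2-Eb1, H2-DMa, H2-DMb1, Cd74 and Ciita. They were chosen by name, as the rows of the gene tables with these symbols, and each symbol matched 1 of 54532 genes. The aortas of 16 male C57BL/6J mice were sequenced as total RNA, 1 library per mouse and 4 mice per group. According to the methods, surgery was done at 12 weeks of age and the diets began 2 weeks later and lasted 4 weeks, whereas the labels give 30 days. Sham mice and Nx-HPi-Lp mice ate 2% phosphorus and 2.5% protein. Nx stands for 5/6 nephrectomy, in which the poles of the left kidney were ligated and the right kidney was later removed. Nx-HPi-Hp mice ate 2% phosphorus and 18% protein, and Nx-LPi-Lp mice 0.3% phosphorus and 2.5% protein. All mice shared 1 strain and sex. Sham mice were kept on 1 of the 3 diets only, so by design surgery alone separates them from Nx-HPi-Lp mice, while surgery and diet both separate them from the other Nx groups and cannot be told apart there. The study asked what high phosphate and low protein do to the aorta of mice after 5/6 nephrectomy.

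MHC class II molecules present peptides from the endosomes of a cell to CD4 T cells. They are made mainly by dendritic cells, macrophages and B cells, and in other cells of the vessel wall after exposure to interferon gamma. An alpha and a beta chain pair in the endoplasmic reticulum around the invariant chain Cd74, which fills the groove and directs the complex to endosomes. There proteases cut Cd74 down to a short fragment, and H2-DM exchanges that fragment for a peptide. Ciita, the class II transactivator, does not bind DNA itself but sits on a set of factors (RFX, CREB and NF-Y) that occupy the X and Y boxes of class II promoters.

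In mm10, the build of the files, H2-Aa (ENSMUSG00000036594) lies on chromosome 17 from 34282744 to 34287827 on the minus strand. On the plus strand of the same chromosome lie H2-Ab1 (ENSMUSG00000073421; 34263209 to 34269418), H2-Eb1 (ENSMUSG00000060586; 34305877 to 34316199), H2-DMa (ENSMUSG00000037649; 34135182 to 34139101) and H2-DMb1 (ENSMUSG00000079547; 34153072 to 34160230). Ciita (ENSMUSG00000022504) lies on the plus strand of chromosome 16 from 10480059 to 10528418.

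Promoter elements known from class II genes are shown to place the members by sequence, and no test ties them to the values that follow. RefSeq promoter windows of GRCm38.p6, the same assembly as mm10, reach from 250 bases before to 50 bases after a start site. They were matched for 4 of the 7 genes, H2-Aa, H2-Eb1, H2-DMb1 and H2-DMa. Each sequence reads 5′ to 3′ on the strand of the gene, and the capitals mark a GNAAC motif, the core of the X box, followed by TGATTGG, the Y box. In these genes the pair was searched on the strand of the gene, and TGATTGG alone on either strand. The motifs of the pair do not overlap, with 20 to 30 bases allowed between them, and the letters were chosen after these promoters had been read. The first is chr17:34287862-34287914 on the minus strand, the second chr17:34305766-34305817 and the third chr17:34153087-34153139, both on the plus strand.
H2-Aa: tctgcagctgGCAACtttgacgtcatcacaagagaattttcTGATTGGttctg
H2-Eb1: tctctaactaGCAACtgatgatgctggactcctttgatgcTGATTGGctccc
H2-DMb1: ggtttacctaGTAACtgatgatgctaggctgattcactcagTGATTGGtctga

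The gap between the boxes was 26 bases in H2-Aa, 25 in H2-Eb1 and 26 in H2-DMb1, and the Y box ended 43, 54 and 56 bases before the RefSeq start site. The RefSeq start of H2-DMb1 lies downstream of the gene start in the files, so its element falls inside the interval given for the gene. Among further class II genes the same pair stood in the windows of H2-Oa (gap of 26 bases), H2-Ob (23 bases) and H2-Eb2 (25 bases). H2-DMb2 held TGATTGG without the pair on the strand of the gene, and the 2 windows of H2-DMa held neither. Of 32851 windows of this length, 7.82% held TGATTGG on either strand. The pair was held by 0.137% on the strand of the gene and by 0.323% on either strand. A match is a run of letters only, and no binding was measured in these mice.

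The libraries differed in depth and, between groups, in their cell type markers. Total counts were 13659525 to 24204348 in 14 libraries, and 57276915 and 46499243 in libraries 2 and 3 of Nx-HPi-Lp aortas. Counts on mitochondrially encoded genes were 4.18% to 6.34% of a Sham library, 19.3% to 27.1% of an Nx-HPi-Lp library, 9.50% to 29.0% of an Nx-HPi-Hp library and 14.2% to 21.1% of an Nx-LPi-Lp library. As a check of the labelled tissue, 4 smooth muscle markers (Myh11, Acta2, Tagln and Cnn1) summed to 19155 to 23311 CPM in Sham aortas, so aortic wall was present. Their sum was 1705 to 3939 CPM in Nx-HPi-Lp aortas, 4849 to 20476 CPM in Nx-HPi-Hp aortas and 6209 to 14996 CPM in Nx-LPi-Lp aortas. CPM are read counts divided by library totals that were scaled with TMM over the 16 libraries together. The 4 adipocyte markers summed to 184 to 506 CPM in Sham aortas and 557 to 6993 CPM over all Nx aortas, and 4 sympathetic neuron markers to 0.553 to 2.39 CPM and 1.14 to 804 CPM. The 4 fibroblast markers (Pdgfra, Dpt, Lum and Col1a1), 3 of them called higher in Nx-HPi-Lp than in Sham aortas, summed to 880 to 1460 CPM in Sham aortas and 493 to 1799 CPM in Nx-HPi-Hp and Nx-LPi-Lp aortas. In libraries 1 to 4 of Nx-HPi-Lp aortas they summed to 1944, 10551, 3988 and 3862 CPM, with library 2 highest and library 1 lowest, as for the class II chains. Of 4 endothelial markers, Cdh5 and Kdr were called higher in Nx-HPi-Lp than in Sham aortas, and Pecam1 and Vwf were not called. The share of all genes called higher in this comparison was 15.0%. The part of these lists in the class II values was not tested. In pieces of whole vessel, fewer cells of a type and less RNA per cell cannot be told apart.

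Compared between genes per length, by the deposited FPKM, which divide a count by gene length and library size, Cd74 was the most abundant of the 7 transcripts. In Sham aortas its level was 85.5 ± 25.6 FPKM (SD, n = 4), above H2-Eb1 at 37.9 ± 11.8 FPKM, H2-Ab1 at 25.5 ± 7.35 FPKM and H2-Aa at 22.1 ± 7.24 FPKM. H2-DMb1 at 6.39 ± 0.881 FPKM and H2-DMa at 4.04 ± 1.21 FPKM followed, and Ciita was lowest at 0.222 ± 0.0496 FPKM. The ranges of H2-Eb1, H2-Ab1 and H2-Aa overlapped over the Sham libraries, yet within each of the 16 libraries the chains kept nearly fixed proportions. The FPKM ratio of H2-Ab1 to H2-Aa lay between 1.08 and 1.46 in all 16 libraries, and that of H2-Eb1 to H2-Aa between 1.54 and 2.13. Cd74 varied more against H2-Aa, from 2.76 to 5.02. It was 2.76 to 3.44 times the level of H2-Aa in Nx-HPi-Lp aortas and 3.64 to 4.14 times in Sham aortas, without overlap of these groups. In Nx-HPi-Hp aortas Cd74 was 3.41 to 5.02 times that level, which overlapped the Nx-HPi-Lp range. In Nx-LPi-Lp aortas it was 3.49 to 4.35 times, above that range.

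H2-Ab1, the beta chain of the class II A molecule, was higher in 2 of the Nx groups than in Sham aortas. Its levels in libraries 1 to 4 were 40.2, 50.8, 56.3 and 27.4 CPM in Sham aortas and 38.7, 183, 119 and 65.6 CPM in Nx-HPi-Lp aortas. In the same order they were 130, 80.8, 63.8 and 68.9 CPM in Nx-HPi-Hp aortas and 44.7, 48.1, 51.6 and 35.6 CPM in Nx-LPi-Lp aortas. Every Nx-HPi-Hp library lay above every Sham and every Nx-LPi-Lp library, and 3 of the 4 Nx-HPi-Lp libraries did, while library 1 lay among the Sham values. H2-Aa, the alpha chain of the same molecule, spanned 24.9 to 57.2 CPM in Sham aortas, 33.8 to 170 CPM in Nx-HPi-Lp aortas, 54.1 to 112 CPM in Nx-HPi-Hp aortas and 34.8 to 50.7 CPM in Nx-LPi-Lp aortas. H2-Eb1, the beta chain of the E molecule, was at 41.3, 55.5, 61.9 and 28.9 CPM in Sham aortas, and at 137, 90.2, 74.4 and 67.6 CPM in Nx-HPi-Hp aortas, all above the Sham values. H2-Eb1 was at 38.8, 187, 108 and 60.2 CPM in Nx-HPi-Lp aortas and between 43.3 and 64.0 CPM in Nx-LPi-Lp aortas. For all 3 chains the highest Nx-HPi-Lp library was library 2 and the lowest was library 1.

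Cd74 (ENSMUSG00000024610, chromosome 18 from 60803848 to 60812646 on the plus strand) stood at 123, 151, 157 and 73.1 CPM in libraries 1 to 4 of Sham aortas and at 87.4, 352, 230 and 139 CPM in Nx-HPi-Lp aortas. It reached 367, 194, 173 and 204 CPM in Nx-HPi-Hp aortas and 120, 116, 166 and 110 CPM in Nx-LPi-Lp aortas. The Nx-HPi-Hp aortas were thus the only group whose every library exceeded every Sham library, and libraries 1 and 4 of Nx-HPi-Lp aortas fell within the Sham range.

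H2-DMa, the alpha chain of the peptide exchange factor H2-DM, was the member whose Nx-HPi-Lp libraries all stood above the Sham libraries. It measured 7.86, 6.56, 9.11 and 4.19 CPM in Sham aortas and 13.05, 23.1, 19.1 and 12.3 CPM in Nx-HPi-Lp aortas. The levels were 15.01, 15.8, 6.30 and 9.84 CPM in Nx-HPi-Hp aortas and 7.26, 8.66, 6.99 and 5.90 CPM in Nx-LPi-Lp aortas. Its partner chain H2-DMb1 behaved differently in library 1 of Nx-HPi-Lp aortas, where it had the lowest level of all 16 libraries. H2-DMb1 was at 4.35, 28.1, 15.1 and 12.2 CPM in Nx-HPi-Lp aortas and between 8.58 and 11.9 CPM in Sham aortas. It was between 7.57 and 11.9 CPM in Nx-HPi-Hp aortas and between 7.24 and 7.84 CPM in Nx-LPi-Lp aortas. The FPKM ratio of H2-DMa to H2-DMb1 was 0.442 to 0.744 in Sham aortas and 0.745 to 2.71 in Nx-HPi-Lp aortas, with 2.71 in library 1. It was 0.751 to 1.26 in Nx-HPi-Hp aortas and 0.738 to 0.999 in Nx-LPi-Lp aortas. The lowest Nx-HPi-Lp and Nx-HPi-Hp values were only just above the highest Sham value, so these groups were barely separate from Sham aortas. H2-DMb1 has a close copy, H2-DMb2, and how reads matching both were counted is not given in the sources used here, so their split is uncertain.

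Ciita was the least abundant member, with 16 to 516 counts per library. It was at 2.70, 2.32, 2.35 and 1.502 CPM in Sham aortas and at 1.13, 9.004, 4.11 and 4.64 CPM in Nx-HPi-Lp aortas. In Nx-HPi-Hp aortas it was at 5.38, 3.43, 3.45 and 3.17 CPM, above every Sham library, and in Nx-LPi-Lp aortas at 2.92, 1.00, 2.77 and 2.33 CPM. Across Nx-HPi-Lp libraries the order of Ciita matched that of the chains at both ends, with library 2 highest and library 1 lowest. The summed CPM of H2-Aa, H2-Ab1, H2-Eb1 and Cd74 was 70.3 to 253 times the CPM of Ciita, with a median of 118 in Sham aortas, 117 in Nx-HPi-Lp aortas, 125 in Nx-HPi-Hp aortas and 108 in Nx-LPi-Lp aortas.

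**Figure D1:**
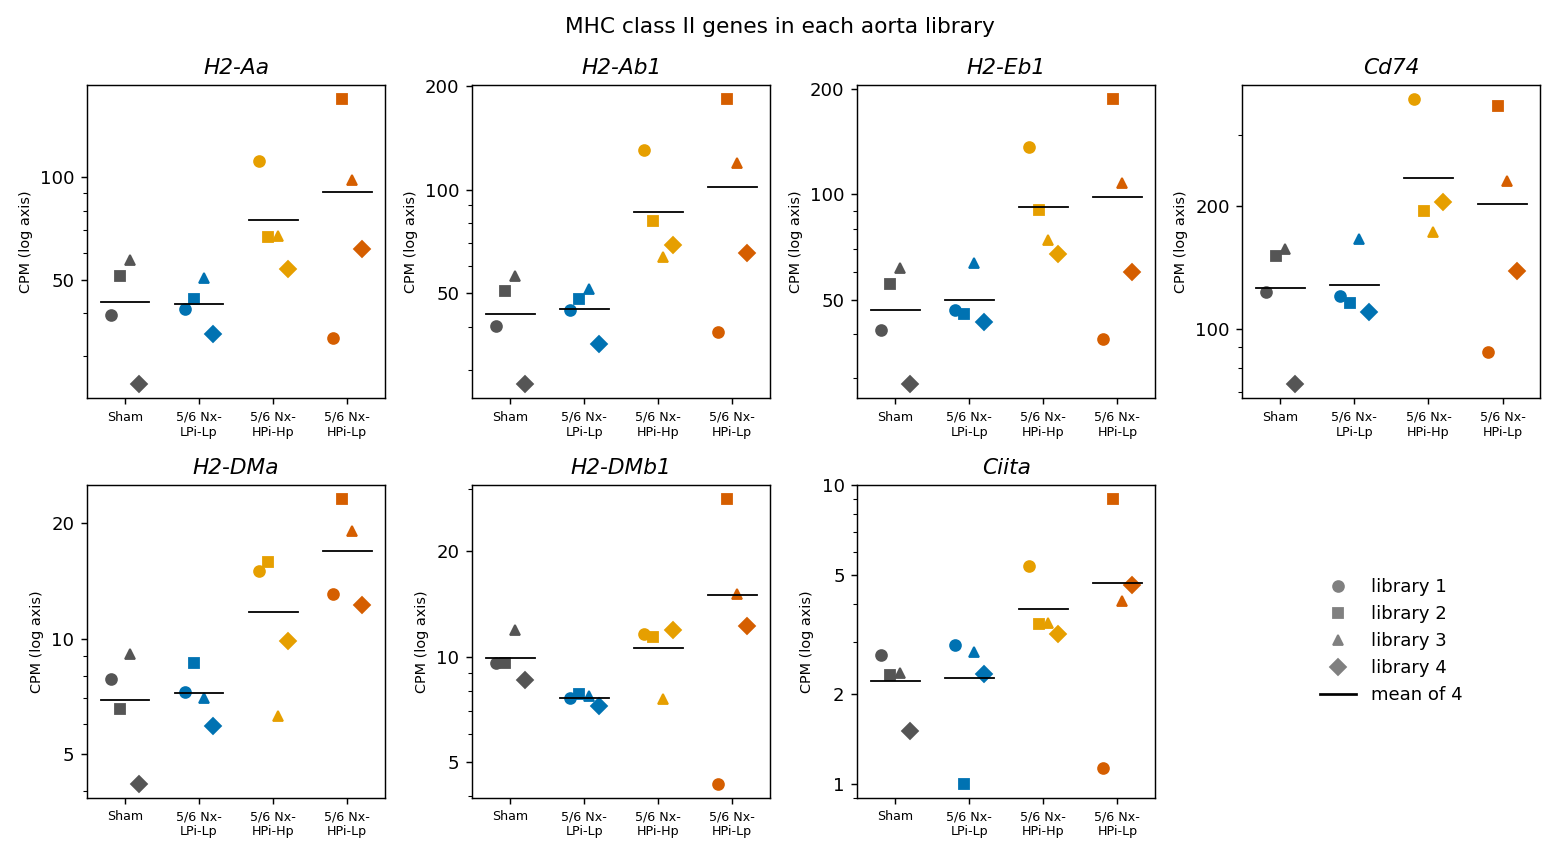
Level of each of the 7 class II genes in CPM (log axis) in the 4 groups, with 1 point per mouse, the point shape giving the library number and the line the mean of 4 mice. Libraries 2 and 3 of Nx-HPi-Lp aortas are the highest of their group for 6 of the 7 genes, and Nx-LPi-Lp libraries lie near the Sham libraries.

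The comparisons that follow share libraries, each group serving in 3 of the 6, and are not independent of each other. Between Nx-HPi-Lp and Sham aortas, which differ in surgery on 1 diet, 2 of the 7 genes were called higher and none lower. To be called, a gene needed a Benjamini-Hochberg adjusted p not above 0.05 in edgeR's quasi-likelihood test, over all genes tested, and a log2 fold change of 1 or more in size. H2-DMa rose by 1.34 on the log2 scale (standard error 0.28, edgeR adjusted p = 0.00371), and H2-Ab1 by 1.27 (standard error 0.42, edgeR adjusted p = 0.0338). The other 5 did not pass, with log2 fold changes of 1.13 ± 0.44 (standard error) for H2-Aa, 1.12 ± 0.43 for H2-Eb1, 1.15 ± 0.51 for Ciita, 0.74 ± 0.39 for Cd74 and 0.65 ± 0.43 for H2-DMb1. Over all 16513 genes tested, 22.2% were called, 15.0% higher and 7.18% lower, and 2 of 7 is near that share. The groups did not overlap for 1 of the 7 genes, H2-DMa, against 43.0% of all genes. The median log2 fold change of the 7 was 1.13, and that of all genes tested was -0.0027.

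The call of H2-Ab1 rested on few libraries. It was lost when any one Sham library, or library 2 or 3 of Nx-HPi-Lp aortas, was left out (edgeR adjusted p 0.0518 to 0.0972, log2 fold change 0.84 to 1.40). H2-DMa kept its call with each library left out in turn. Without library 1 of Nx-HPi-Lp aortas 6 of the 7 genes were called, all except H2-DMb1. Over all genes, 4087 were called in that fit, against 3666 with every library in. Without both libraries 2 and 3, none of the 7 was called, while 4291 genes were called over the whole table. The log2 fold change of H2-DMa was then 0.93 (edgeR adjusted p = 0.0264) and that of Cd74 was -0.10.

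The Nx-HPi-Lp aortas did not differ by a called gene among the 7 from Nx-HPi-Hp aortas, from mice that ate the same phosphorus with more protein. The log2 fold changes ran from -0.21 ± 0.40 (standard error) for Cd74 to 0.53 ± 0.32 for H2-DMa, with a median of 0.28, and the groups overlapped for all 7 genes. None of the 7 had an unadjusted p under 0.05 in edgeR, and DESeq2 called 0. Of all 16198 genes tested in this comparison, 8.12% were called, and 20.4% had groups that did not overlap. The standard errors of these log2 fold changes were 0.32 to 0.52, so differences of moderate size in either direction could go undetected. Without both libraries 2 and 3 of Nx-HPi-Lp aortas, the log2 fold changes of the 3 chains were -0.66, -0.73 and -0.90 for H2-Aa, H2-Ab1 and H2-Eb1, and none was called. Over all genes, 744 were called in that fit, against 1315 with every library in.

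Against Nx-LPi-Lp aortas, from mice that ate less phosphorus with the same protein, 1 of the 7 genes was called higher in Nx-HPi-Lp aortas. H2-DMa rose by 1.24 on the log2 scale (standard error 0.25, edgeR adjusted p = 0.0105), and its groups did not overlap. Log2 fold changes of the others were between 0.67 ± 0.38 for Cd74 and 1.19 ± 0.41 for H2-Ab1 (standard errors), with edgeR adjusted p of 0.0683 to 0.235. The background was 11.9% called and 24.7% not overlapping among 16253 genes. Without library 1 of Nx-HPi-Lp aortas 5 of the 7 were called, and without both libraries 2 and 3 none was. Over all genes, 2085 and 1719 were called in these fits, against 1931 with every library in. DESeq2 called 3 of the 7, H2-DMa, H2-Aa and H2-Ab1.

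Between Nx-HPi-Hp and Sham aortas 2 of the 7 genes were called higher and 5 did not pass. H2-Ab1 rose by 1.05 (standard error 0.27, edgeR adjusted p = 0.0189) and H2-Eb1 by 1.05 (standard error 0.27, edgeR adjusted p = 0.0200) on the log2 scale. Cd74 at 0.97 ± 0.29 (standard error), H2-Aa at 0.87 ± 0.28 and Ciita at 0.87 ± 0.29 had edgeR adjusted p of 0.0314, 0.0405 and 0.0432 but stayed under the fold threshold. H2-DMa had 0.83 ± 0.32 and H2-DMb1 0.16 ± 0.18. The groups did not overlap for 4 of the 7 genes (H2-Ab1, H2-Eb1, Cd74 and Ciita), against 33.8% of the 15882 genes tested, and 12.2% of these were called. Both calls lay close to the fold threshold and were lost under total-count scaling and without a count filter. They were also lost without library 1 or 4 of Sham aortas or library 1 of Nx-HPi-Hp aortas, where the log2 fold changes of H2-Ab1 were 0.99, 0.87 and 0.77 and those of H2-Eb1 0.97, 0.86 and 0.79. Without Sham library 3, or Nx-HPi-Hp library 3 or 4, 4 of the 7 were called. Over all genes, 1520, 1426 and 3161 were called in these fits, against 1932 with every library in.

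Between Nx-LPi-Lp and Sham aortas no class II gene was called, and none had an unadjusted p under 0.05 in edgeR. DESeq2 called 0 as well. The log2 fold changes ran from -0.29 ± 0.14 (standard error) for H2-DMb1 to 0.18 ± 0.23 for H2-Eb1, with a median of 0.12. H2-DMb1 was the gene whose groups did not overlap, against 35.6% of the 16071 genes tested, of which 10.9% were called.

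The Nx-HPi-Hp and Nx-LPi-Lp aortas, whose mice differed in both phosphorus and protein, did not differ by a called gene, since edgeR called 0 of 15850 genes (0%). At an unadjusted p under 0.05 there were 1420 genes (8.96%), 6 of the 7 class II genes among them, and DESeq2 called 79 genes with none of the 7. The class II log2 fold changes were all positive, from 0.46 ± 0.19 (standard error) for H2-DMb1 to 0.92 ± 0.23 for H2-Ab1, with edgeR adjusted p of 0.492 to 0.558. All 4 libraries of Nx-HPi-Hp aortas lay above all 4 of Nx-LPi-Lp aortas for 5 of the 7 genes (H2-Aa, H2-Ab1, H2-Eb1, Cd74 and Ciita), whereas 5.15% of all genes did not overlap. Those 5 genes moved together over the libraries and are not separate evidence.

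**Figure D2:**
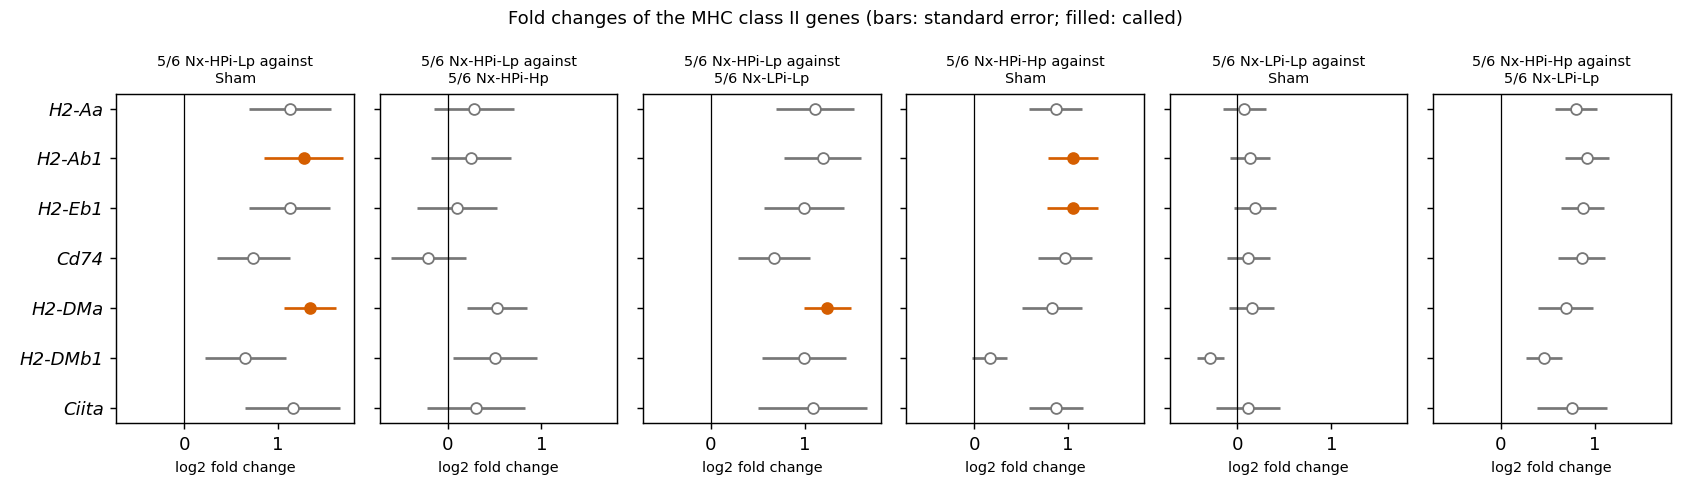
Log2 fold changes of the 7 class II genes in the 6 comparisons, with standard errors as bars, filled where the gene was called. The 2 comparisons of Nx-HPi-Lp aortas with Sham and with Nx-LPi-Lp aortas have wider bars (0.25 to 0.58) than that of Nx-LPi-Lp with Sham aortas (0.14 to 0.34).

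In Nx-HPi-Lp against Sham aortas the median log2 fold change of the macrophage markers was 2.31, beside 1.13 for the 7 class II genes. Of 10 macrophage markers (Cd68, Adgre1, Csf1r, Mrc1, Fcgr1, C1qa, C1qb, C1qc, Lyz2 and Mertk), 9 were called higher than in Sham aortas with log2 fold changes of 1.91 to 2.73. The share of all genes called higher was 15.0%. Mertk, a receptor for the uptake of dead cells, had -0.86 (edgeR adjusted p = 0.00245) and stayed under the fold threshold. None of the 10 was at 0 in any library. Their summed level was 348 to 482 CPM in Sham aortas, 853 to 2769 CPM in Nx-HPi-Lp aortas, 401 to 784 CPM in Nx-HPi-Hp aortas and 320 to 467 CPM in Nx-LPi-Lp aortas. The summed level of H2-Aa, H2-Ab1, H2-Eb1 and Cd74 was 154 to 332, 199 to 891, 378 to 745 and 223 to 332 CPM in the same groups.

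Set against the macrophage markers of the same library, class II transcripts were therefore lowest in Nx-HPi-Lp aortas. The ratio of both sums, which no scaling between libraries can change, was 0.233, 0.322, 0.319 and 0.220 in libraries 1 to 4 of Nx-HPi-Lp aortas. It was 0.559, 0.641, 0.804 and 0.444 in Sham aortas, 0.951, 0.680, 0.944 and 0.681 in Nx-HPi-Hp aortas and 0.661, 0.543, 0.716 and 0.699 in Nx-LPi-Lp aortas. All 4 libraries of Nx-HPi-Lp aortas lay below the other 12. Libraries 2 and 3, the highest in class II level, had higher ratios than libraries 1 and 4 and were still below every library of the other groups.

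The mean log2 ratio of Nx-HPi-Lp aortas was lower by 2.22-fold than that of Sham aortas (log2 difference -1.15), by 2.98-fold than that of Nx-HPi-Hp aortas (-1.58) and by 2.42-fold than that of Nx-LPi-Lp aortas (-1.27). Each of these had p = 0.0286 in a two-sided exact permutation test, the smallest p that 4 against 4 mice can give, and 0.0571 after Benjamini-Hochberg adjustment over the 6 comparisons, which does not pass 0.05. The other 3 differences were 0.43 for Nx-HPi-Hp against Sham aortas, 0.12 for Nx-LPi-Lp against Sham aortas and 0.30 for Nx-HPi-Hp against Nx-LPi-Lp aortas (exact permutation p = 0.114, 0.543 and 0.2). The size of all 3 differences of Nx-HPi-Lp aortas depended on the denominator. That from Nx-HPi-Hp aortas was -1.69 against 4 markers of all leukocytes, -1.26 against the macrophage list without Lyz2 and -1.77 against Ptprc alone. In the same order, that from Nx-LPi-Lp aortas was -1.45, -0.97 and -1.07 (exact permutation p = 0.0286 for each). That from Sham aortas was -1.45 against 4 markers of all leukocytes and -0.79 without Lyz2 (exact permutation p = 0.0571), both settings chosen after seeing the data, and -0.58 against Ptprc alone (p = 0.171). Against 8 dendritic cell markers it was -0.27 (exact permutation p = 0.429), that from Nx-HPi-Hp aortas was -0.68 (p = 0.143) and that from Nx-LPi-Lp aortas was -0.16 (p = 0.6). Much of that denominator was 1 gene, Zbtb46. Its mean was 18.93 CPM of a mean sum of 26.05 CPM in Sham aortas and 17.02 of 54.99 CPM in Nx-HPi-Lp aortas. It was 20.91 of 37.18 CPM in Nx-HPi-Hp aortas and 18.38 of 29.56 CPM in Nx-LPi-Lp aortas. The ratio to this list without Zbtb46 was not tested.

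**Figure D3:**
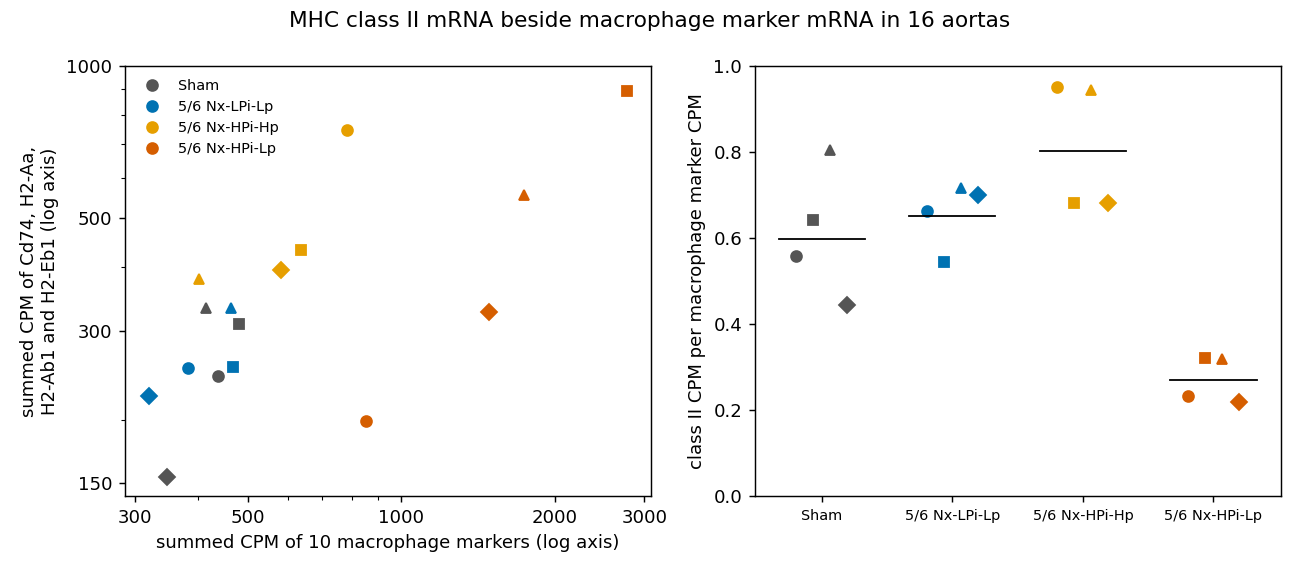
Left, summed CPM of H2-Aa, H2-Ab1, H2-Eb1 and Cd74 against summed CPM of 10 macrophage markers in 16 aortas, both on log axes; right, their ratio by group with 1 point per mouse and the geometric mean as a line. The Nx-HPi-Lp aortas lie to the right on the left panel and between 0.220 and 0.322 on the right panel, below every other mouse.

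The other cell types that bear class II molecules were read from dendritic and B cell markers. Of 8 dendritic cell markers 7 were tested and 4 called higher in Nx-HPi-Lp than in Sham aortas (Itgax, Flt3, Cd209a and Batf3), whereas Zbtb46 had a log2 fold change of -0.10. Their sum was 23.7 to 29.1 CPM in Sham aortas, 36.4 to 76.85 CPM in Nx-HPi-Lp aortas, 31.3 to 48.1 CPM in Nx-HPi-Hp aortas and 27.2 to 34.6 CPM in Nx-LPi-Lp aortas. Of 6 B cell markers 1 was called higher, Pax5, near the 15.0% of all genes called higher. All 6 had positive log2 fold changes, from 0.85 to 2.81, with a median of 1.08. The summed level of the list overlapped between the groups and was 4.69 to 22.0 CPM in the Sham and 12.1 to 51.5 CPM in Nx-HPi-Lp aortas. Sham libraries also held thymus transcripts. The 8 thymus markers, Rag1 and Dntt among them, summed to 4.38 to 27.6 CPM in Sham aortas, 0 to 11.4 CPM in Nx-HPi-Hp and Nx-LPi-Lp aortas, and 0 to 1.13 CPM in Nx-HPi-Lp aortas, where Rag2 and Ptcra were at 0 in all 4 libraries. The Sham library with the highest thymus level, library 4, had the lowest level of all 3 class II chains and Cd74 among Sham libraries. The other groups did not show this. Library 1 of Nx-HPi-Hp and library 3 of Nx-LPi-Lp aortas had the highest thymus level of their groups. They also had the highest sum of these 4 transcripts, 745 and 332 CPM. In Nx-HPi-Lp aortas the thymus level was highest in library 3 and the sum in library 2. The part of these cells in the class II levels was not tested.

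Among further class II genes, H2-DMb2 rose by 1.95 on the log2 scale against Sham aortas (standard error 0.51, edgeR adjusted p = 0.0122). H2-Oa and H2-Ob, the chains of an inhibitor of H2-DM that B cells and some dendritic cells make, had 1.72 ± 0.63 (standard error, edgeR adjusted p = 0.0520) and 0.81 ± 0.53 (edgeR adjusted p = 0.250). H2-Eb2 and H2-Ea-ps were too low to be tested. H2-Ea-ps, the row of the E alpha chain that C57BL/6 mice do not make, had 11 and 42 counts in libraries 1 and 2 of Nx-HPi-Lp aortas, 6 and 3 counts in libraries 2 and 4 of Nx-HPi-Hp aortas, and 0 in the other 12 libraries.

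Among the tested genes of the pathway lists the largest log2 fold change was that of an endosomal protease, one of those that ready class II molecules for peptide. Of 9 genes of class II compartment proteases and turnover, 3 were called higher in Nx-HPi-Lp than in Sham aortas and none lower. The share of all genes called higher was 15.0%. Ctss (cathepsin S), which makes the last cuts of the invariant chain, was at 9.36, 11.0, 8.25 and 6.44 CPM in Sham aortas and 48.4, 226, 135 and 102 CPM in Nx-HPi-Lp aortas. All Nx-HPi-Lp libraries were far above all others, whose highest value was 17.9 CPM. Its log2 fold change was 3.92 (standard error 0.42, edgeR adjusted p = 0.000111) against Sham aortas, 3.36 (edgeR adjusted p = 0.00402) against Nx-HPi-Hp aortas and 3.65 (edgeR adjusted p = 0.00222) against Nx-LPi-Lp aortas. March1, a ubiquitin ligase that takes class II molecules off the cell surface, rose by 2.47 (standard error 0.38, edgeR adjusted p = 0.000778). Lgmn, the asparagine endopeptidase, rose by 1.52 (standard error 0.26, edgeR adjusted p = 0.00128), both against Sham aortas. Ctsl, Ctsb, Ctsd, Ifi30, Sppl2a and March8 were not called, with log2 fold changes of -0.23 to 0.96. In Nx-HPi-Lp against Nx-HPi-Hp aortas 4 of the 9 were called higher, Ctss, March1 (2.01), Lgmn (1.86) and Ctsl (1.62), and the same 4 were called against Nx-LPi-Lp aortas. The shares of all genes called in either direction were 8.12% and 11.9%. None of the 9 was called between Nx-HPi-Hp and Sham aortas, where 12.2% of all genes were.

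Of 9 regulators of class II promoters and of Ciita, Irf8 and Spi1, both transcription factors of myeloid cells, were called higher against Sham aortas. Of all genes tested, 15.0% were called higher and 22.2% in either direction. Irf8 rose by 2.54 (standard error 0.24, edgeR adjusted p = 6.06e-05) and Spi1 by 2.48 (standard error 0.38, edgeR adjusted p = 0.000701). They were called in Nx-HPi-Hp aortas as well, at 1.26 and 1.10. The 7 subunits that occupy the X and Y boxes (Rfx5, Rfxap, Rfxank, Creb1, Nfya, Nfyb and Nfyc) were not called, with log2 fold changes from -0.84 for Nfya to 0.06 for Nfyc. Among them Nfya, Creb1 (-0.48) and Rfx5 (-0.60) had edgeR adjusted p of 0.00180, 0.00821 and 0.00874 and stayed under the fold threshold. None of the 7 tested genes of the interferon gamma axis was called (median log2 fold change 0.15, range -0.44 to 0.65), although the edgeR adjusted p of Ifngr1 was 0.00344 and that of Jak1 0.0152. Ifng itself was too low to be tested.

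Genes of class I presentation, the pathway for peptides from the cytosol, were mostly not called. Of 10, 1 was called higher in Nx-HPi-Lp than in Sham aortas, Psmb8, an immunoproteasome subunit, at 1.16 (standard error 0.15, edgeR adjusted p = 0.000245), and the median log2 fold change was 0.66. In Nx-HPi-Hp aortas 3 were called against Sham aortas, Psmb8 at 1.13, Nlrc5, the class I counterpart of Ciita, at 1.13 and Tap1, a subunit of the peptide transporter, at 1.10. Between Nx-HPi-Lp and Nx-HPi-Hp aortas none of the 10 was called, with log2 fold changes of -0.23 to 0.19. Of all genes tested, 15.0% were called higher in the first of these comparisons. In either direction 12.2% were called in the second and 8.12% in the third. Class I genes have close copies, so H2-K1 and H2-D1 are uncertain.

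Of the ligands and coreceptor of the Cd74 receptor for the cytokine MIF, Cd44 rose by 1.64 (standard error 0.28, edgeR adjusted p = 0.00122) against Sham aortas, while Mif and Ddt had -0.44 and 0.26 and were not called. Of 6 co-stimulation and checkpoint ligands, which a T cell reads beside the class II complex, 5 were tested and 3 called higher, Cd80 at 2.80 (standard error 0.50), Cd86 at 2.10 (0.36) and Cd40 at 1.66 (0.40). Cd274 and Icosl were not called, with 0.93 and -0.33, and Pdcd1lg2 was too low to be tested. The share of all genes called higher was 15.0%. Lag3, a receptor on T cells that binds class II molecules, rose by 1.44 (standard error 0.22, edgeR adjusted p = 0.000766), whereas Cd4, the coreceptor, had -0.80 and was not called. Lag3 rose in Nx-HPi-Hp aortas (1.70) and Nx-LPi-Lp aortas (1.00) against Sham aortas as well. Of 6 T cell markers 5 were tested, and Cd8a and Lck, which developing T cells of the thymus also express, were called lower in Nx-HPi-Lp than in Sham aortas. The share of all genes called lower was 7.18%. The 6 T cell markers summed to 10.8, 30.0, 11.1 and 72.1 CPM in Sham libraries 1 to 4, where the thymus markers summed to 4.51, 16.9, 4.38 and 27.6 CPM. Both were higher in libraries 2 and 4 than in libraries 1 and 3, and the part of thymus transcripts in these calls was not tested.

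**Figure D4:**
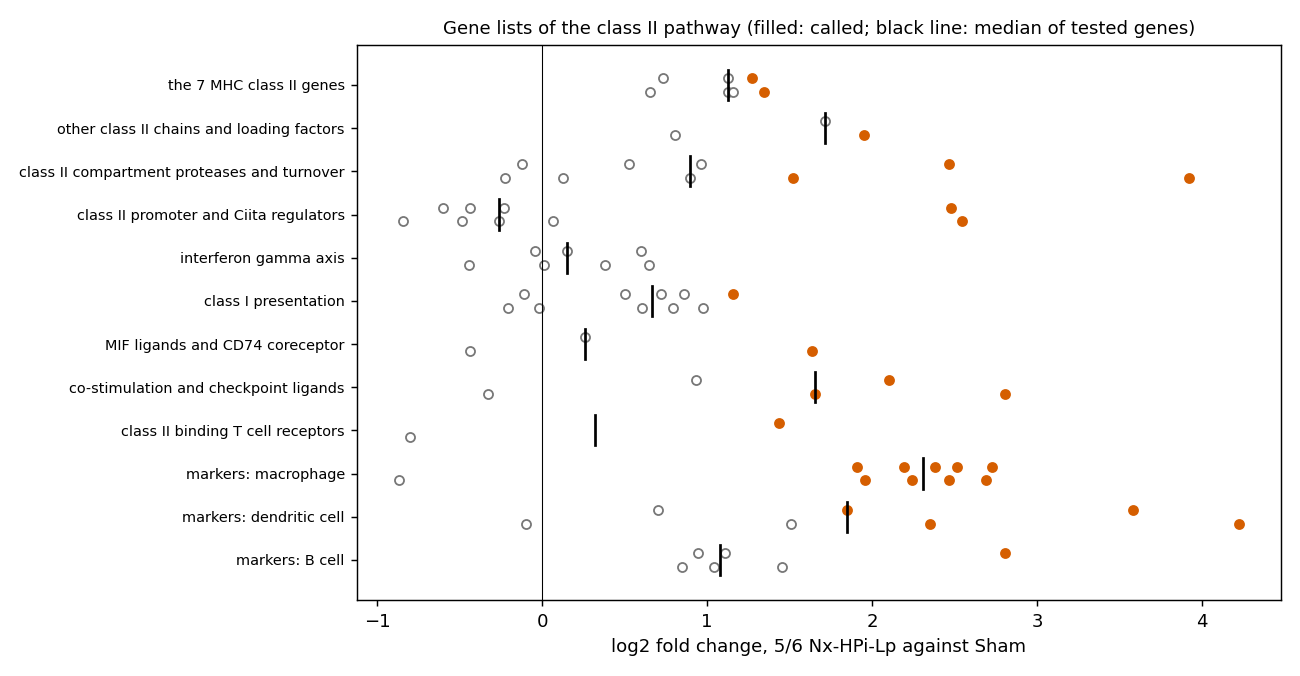
Log2 fold changes of Nx-HPi-Lp against Sham aortas for each tested gene of the pathway lists and of 3 marker lists, 1 point per gene, filled where called, with the median of the list as a black line. The 7 class II genes have a median of 1.13, and the macrophage markers one of 2.31.

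The genes whose pattern was most like that of the class II chains and Cd74 were sought by Pearson's r of log2(CPM + 1) with the mean of H2-Aa, H2-Ab1, H2-Eb1 and Cd74, over 16 libraries and 15016 genes. These 16 points share group, depth and tissue composition, so r is a description. The highest r were those of Zeb2os (0.90), Slc25a45 (0.87), Ly6e (0.86), Pltp (0.86), Fcrls (0.86), Slfn8 (0.85), Fgd2 (0.83), Nfam1 (0.82), Guca1a (0.82) and I830077J02Rik (0.82). Among the 7 genes, Ciita had 0.86, H2-DMa 0.79 and H2-DMb1 0.79. After the mean of each group was taken away, the most alike were Ifi211 (0.92), Ccl9 (0.92), Rab29 (0.91), Pde1a (0.90), Steap3 (0.90), Spint1 (0.90), Ccr2 (0.89), Cd68 (0.89), Pltp (0.89) and Nfam1 (0.89). Pltp, the phospholipid transfer protein, and Nfam1, a membrane protein of immune cells, were in both lists. Ccr2, the monocyte chemokine receptor, and Cd68, a macrophage marker, appeared in the second alone.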

How the data were processed

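The authors had the reads cleaned, aligned to mm10 with HISAT2 v2.0.5 and counted per gene with featureCounts v1.5.0-p3. The deposited counts are whole numbers without normalization, and the deposited FPKM were scaled between libraries by the authors. Columns of the authors' comparisons were not used. Counting options for strand and multiple matches are not given in the sources used here. Members and lists were chosen with earlier results of these data known. Each fit in edgeR 4.0.16 (R 4.3.3) held the 8 libraries compared, after filterByExpr and TMM, with the quasi-likelihood test and Benjamini-Hochberg adjustment over all genes, and all 7 members passed the filter in every comparison. DESeq2 1.42.0, limma 3.58.1 on log2(FPKM + 1) and log2(FPKM + 0.1) for a mean FPKM of at least 0.5, other scalings, and each library left out were alternatives. Named list genes were up to 3 per list with the largest called change against the Sham aortas, any called the opposite way to the majority, and those too low to test. Other list genes were named after their values were seen. Likeness used genes with a mean of at least 1 CPM. Outliers used Dixon's test. On simulated data drawn from the comparison of Nx-HPi-Lp with Sham aortas (16513 genes), edgeR recovered 156 of 200 changed genes with 2 false calls. Python 3.11.15 and matplotlib 3.10.9 drew the figures. Library totals were 13659525 to 57276915 counts. The errors are between mice, and counting error is largest for Ciita. Standard errors of edgeR log2 fold changes were the size of the change divided by the square root of the F of the quasi-likelihood test. Within groups no pair of libraries was a copy (lowest chi-square per gene 20.0). Values of some list genes are not reported here.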

Additional observations from a re-analysis of the deposited data

Results flagged for a closer look

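Single libraries far from the other 3 of their group by Dixon's criterion for 4 samples (0.829) were found in 3 of 32 groups examined, and chance flags about 1 in 20. All 3 were in Nx-HPi-Hp aortas. Cd74 was at 367 CPM in library 1, where the others lay between 173 and 204 CPM. Ciita was at 5.38 CPM in the same library, against 3.17 to 3.45 CPM. H2-DMb1 was at 7.57 CPM in library 3, against 11.4 to 11.9 CPM.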

How the results depend on the processing

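Of 807 fold changes of the class II genes under other settings, 726 kept their direction and side of the threshold, 22 lost the call, 25 gained one and 34 changed sign, all 34 among genes not called. RLE scaling, leaving out mitochondrially encoded genes and thinning all libraries to 13659525 counts (chosen after seeing the data) changed no call. Of the 7 genes, the count called in Nx-HPi-Lp against Sham aortas was 2, with 1 by limma at either pseudocount, 4 with all 16 libraries in one fit, 0 without both libraries 2 and 3 of Nx-HPi-Lp aortas (chosen after seeing the data) and 1 to 6 with each library left out. Against Nx-LPi-Lp aortas it was 1, with 3 by DESeq2, 2 without a count filter, 3 in one fit, 0 without both libraries and 1 to 5 with each left out. In Nx-HPi-Hp against Sham aortas it was 2, with 0 under total-count scaling, 0 without a count filter, 1 in one fit, 5 without a fold threshold and 0 to 4 with each left out. It stayed at 0 in the other 3 comparisons under every setting run.

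Total-count scaling, which moved the median of all genes by up to -0.22, gave -0.17, -0.10, -0.053, -0.095, -0.12 and -0.12 for H2-Aa, H2-Ab1, H2-Eb1, H2-DMa, Cd74 and Ciita in Nx-LPi-Lp against Sham aortas, and -0.037 for H2-DMb1 in Nx-HPi-Hp against Sham aortas. H2-Eb1 in Nx-HPi-Lp against Nx-HPi-Hp aortas was -0.090 and -0.094 by limma at a pseudocount of 1 and 0.1, and -0.063 with the replicate block. Without both libraries 2 and 3, signs turned for H2-DMb1 (-0.21) and Cd74 (-0.10) against Sham aortas, for H2-Aa (-0.66), H2-Ab1 (-0.73), H2-Eb1 (-0.90), H2-DMb1 (-0.37) and Ciita (-0.43) against Nx-HPi-Hp aortas, and for H2-Eb1 (-0.040) and Cd74 (-0.20) against Nx-LPi-Lp aortas. The cause was not tested. The replicate block moved no count among the 7. Of 24 correlations of same-numbered deviations 4 exceeded 0.1, and they ranged from -0.30 to 0.57. The highest was that of library 4 in Nx-HPi-Hp and Nx-LPi-Lp aortas. Whether same-numbered libraries shared more than a number was not tested.

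With each library left out in turn, log2 fold changes in Nx-HPi-Lp against Nx-HPi-Hp aortas ranged from -0.21 to 0.55 for H2-Aa, -0.20 to 0.52 for H2-Ab1, -0.41 to 0.36 for H2-Eb1, -0.62 to 0.080 for Cd74 and -0.22 to 0.62 for Ciita. In Nx-LPi-Lp against Sham aortas they ranged from -0.12 to 0.23 for H2-Aa, -0.035 to 0.28 for H2-Ab1, -0.032 to 0.30 for H2-DMa, -0.078 to 0.23 for Cd74 and -0.037 to 0.35 for Ciita.

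For the ratio to macrophage markers, Ptprc as denominator gave adjusted exact permutation p of 0.0429 for Nx-HPi-Lp against Nx-HPi-Hp (-1.77) and Nx-LPi-Lp aortas (-1.07), for Nx-HPi-Hp against Sham aortas (1.19) and for Nx-HPi-Hp against Nx-LPi-Lp aortas (0.70). The dendritic cell list gave -0.10 in Nx-LPi-Lp against Sham aortas. With each library left out, the difference ranged from 0.28 to 0.57 in Nx-HPi-Hp against Sham aortas, where the highest, without Sham library 3, had an adjusted exact permutation p of 0.0429, and from -0.021 (without Sham library 4) to 0.27 in Nx-LPi-Lp against Sham aortas. The differences of Nx-HPi-Lp aortas stayed between -1.66 and -1.01 with each library left out. They shrank to between -0.68 and -0.16 against the dendritic cell list. In Sham aortas most of the sum of that list was Zbtb46, and the list without it was not tested.

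The number of genes called over the whole table moved by more than 1.5 times under some settings. In Nx-HPi-Lp against Sham aortas it was 3666, and 2057 by limma at a pseudocount of 1. Against Nx-HPi-Hp aortas it was 1315, with 2095 by DESeq2, 783 by limma, 2011 in one fit and 371 with the replicate block. Against Nx-LPi-Lp aortas it was 1931, with 1068 by limma and 1271 with the block. In Nx-HPi-Hp and Nx-LPi-Lp against Sham aortas it was 1932 and 1748, with 878 and 870 by limma. In Nx-HPi-Hp against Nx-LPi-Lp aortas it was 0, with 79 by DESeq2, 12 without a count filter and 10 with the block. Without a fold threshold the first 5 of these comparisons had 7089, 2113, 3262, 4990 and 5115 called genes. With each library left out the count went as low as 638 against Nx-HPi-Hp aortas and 1278 against Nx-LPi-Lp aortas, and from 1091 to 3161 in Nx-HPi-Hp against Sham aortas.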
